A study of Mus musculus with 4 samples.

Results

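Transcripts of enzymes that write and erase methyl and acetyl groups on histones were followed through Caprin-1 and IgG precipitates of 4T1 cells, a mouse mammary carcinoma line. The set was every gene whose symbol begins with Kmt, Setd, Kdm, Hdac or Kat followed by a digit, which gave 51 of the 12967 gene symbols with values. It held 8 Kmt, 8 Setd, 17 Kdm, 10 Hdac and 8 Kat genes. All cells grew under puromycin and stably carried an shRNA, either the control (shSCR) or one against the ceramide synthase CerS4 (shCerS4). RNA that came down with an antibody to Caprin-1, a protein that binds RNA and helps to form stress granules, was sequenced beside RNA that came down with IgG, the background control. Each of the 4 groups, which were the IgG and the Caprin-1 precipitate of either line, had 1 library and no replicate, so no significance test was made. Whether a line was 1 clone or a pool was not given in the sources used here, and Cers4 was not analysed here, so the knockdown was not checked.

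Lysine methyltransferases add methyl groups to histone tails, and the site decides the mark: H3K4 methylation marks promoters and enhancers, H3K36 methylation marks transcribed gene bodies, and H3K9, H3K27 and H4K20 methylation are tied to silencing or compaction. Lysine demethylases remove these marks, mostly with a Jumonji domain that uses oxygen and 2-oxoglutarate. Lysine acetyltransferases open chromatin by acetylating histone tails, and histone deacetylases reverse this, most of them inside corepressor complexes. In breast cancer many of these genes, above all the Kmt2 genes and the H3K27 demethylases, are known as regulators of cell identity.

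Levels are given as CPM, counts of a gene scaled to a common library size, with all listed transcripts of a gene added together. They are not corrected for transcript length, so their size is read between libraries and not between genes. The estimated depth was 19700000 to 27000000 reads per library. Brackets after a log2 ratio, where given, hold a 95% interval for counting error alone. The words past 2-fold mark ratios of 2-fold or more with an interval that left out 0. The mean over the 4 libraries was at least 5 CPM for 48 of the 51 enzymes, and these were compared among 10283 genes that met the same limit. Epithelial markers summed to between 2948 and 7828 CPM per library, none of 6 leukocyte markers had a listed value, and 3 of 5 fibroblast markers summed to between 20.1 and 65.9 CPM, most of it Pdgfra.

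**Figure D1:**
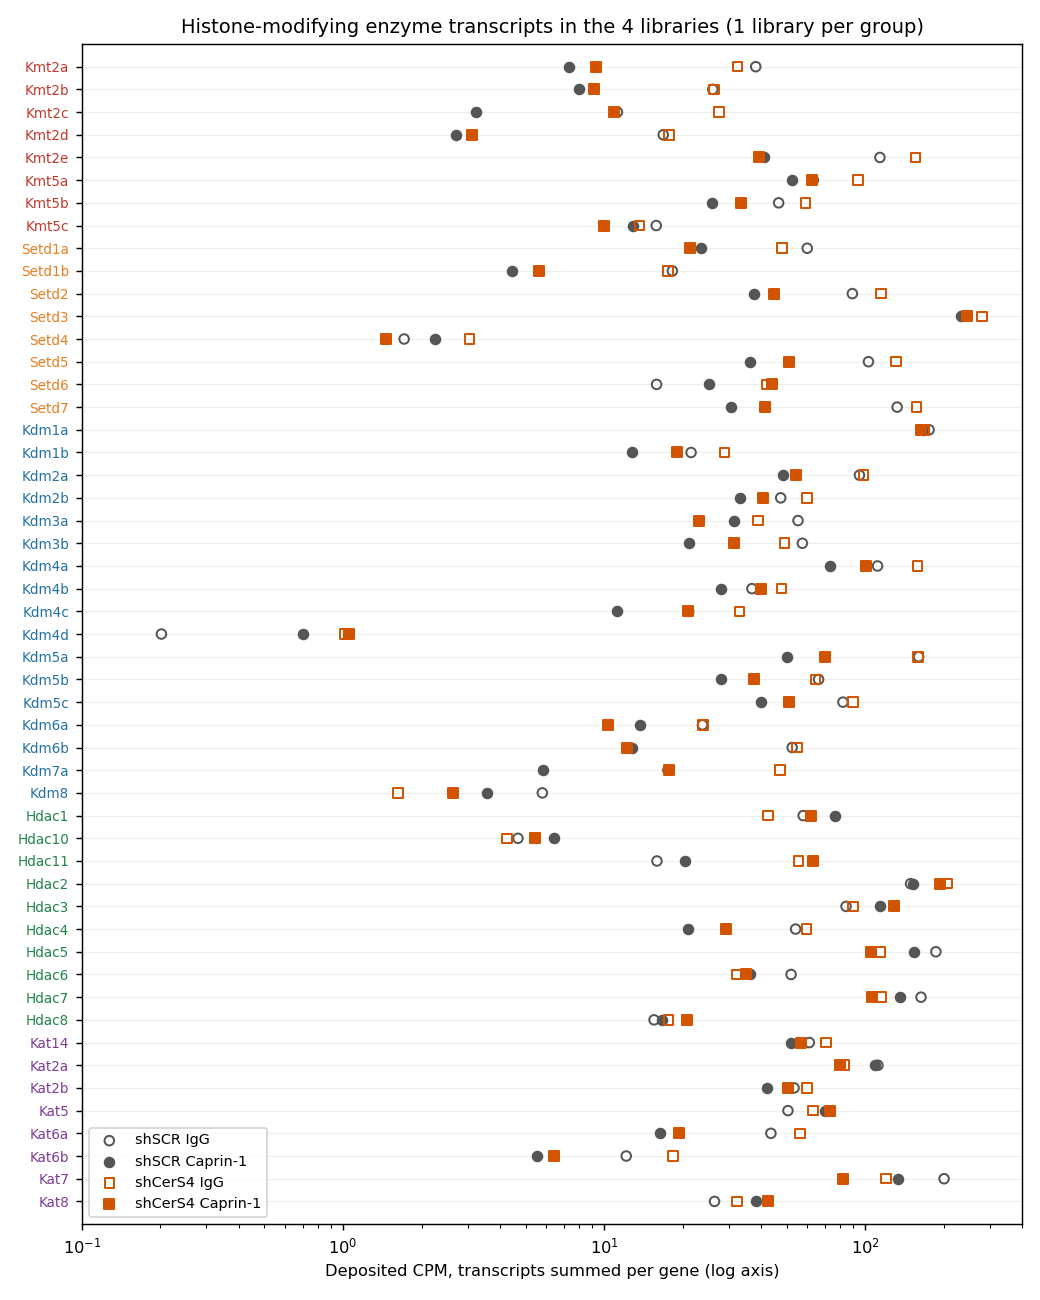
CPM of each of the 51 enzyme genes (rows, coloured by class) in the 4 libraries on a log axis, with circles for shSCR, squares for shCerS4, open symbols for IgG and filled symbols for Caprin-1. Filled symbols lie left of open ones in both lines for most Kmt, Setd and Kdm genes, whereas those of Hdac1, Hdac3 and Kat8 lie to the right.

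The first comparison asked which enzyme transcripts held a larger or smaller share of the RNA with Caprin-1 than with IgG. Most held a smaller share. The median log2 ratio of the 48 enzymes was −0.78 in shSCR cells and −0.65 in shCerS4 cells, where the median of all genes compared was −0.13 and −0.11. Past 2-fold, 19 of the 48 (39.6%) were lower with Caprin-1 in shSCR cells against 13.0% of all genes, and 17 (35.4%) in shCerS4 cells against 8.02% of all genes. No enzyme was higher past 2-fold in either line, where 1.69% and 0.934% of all genes were. Of the enzymes, 16 were lower past 2-fold in both lines, 3 in shSCR cells alone (Kdm3b, Kdm5b and Kdm5c) and 1 in shCerS4 cells alone (Kdm6a). The lines agreed over all genes too, where their ratios had a Pearson correlation of 0.88, against 0.94 over the enzymes. The share of all genes lower in both lines was not counted. Scaling was to library totals, so a ratio below 0 means a smaller share of the library and not less RNA. Trimmed-mean scaling split all genes into 427 higher and 939 lower in shSCR cells, against 174 and 1337, and into 257 and 515 in shCerS4 cells, against 96 and 825. It moved the median of all genes to 0.03 and 0.05 and that of the enzymes to −0.61 and −0.49, which left the gap between them at −0.64 and −0.54.

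Class medians lay apart. In shSCR and then shCerS4 cells the Kmt genes had medians of −1.58 and −1.43, the Setd genes −1.36 in both and the Kdm genes −0.92 and −0.76. The Kat genes stood at −0.28 in both lines and the Hdac genes at 0.07 and 0.15. Within this set the shortfall with Caprin-1 therefore lay mainly with the Kmt, Setd and Kdm genes. Setd3, Setd6 and Kdm1a were exceptions among them, and Kmt5a and Kmt5c lay near the Kat median in shSCR cells. Hdac4, Kat6a and Kat6b were exceptions among the acetyl enzymes. The split did not extend to enzymes with other symbols: in shSCR cells other acetyltransferases had a median of −1.08 and other histone methyltransferases −0.22.

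**Figure D2:**
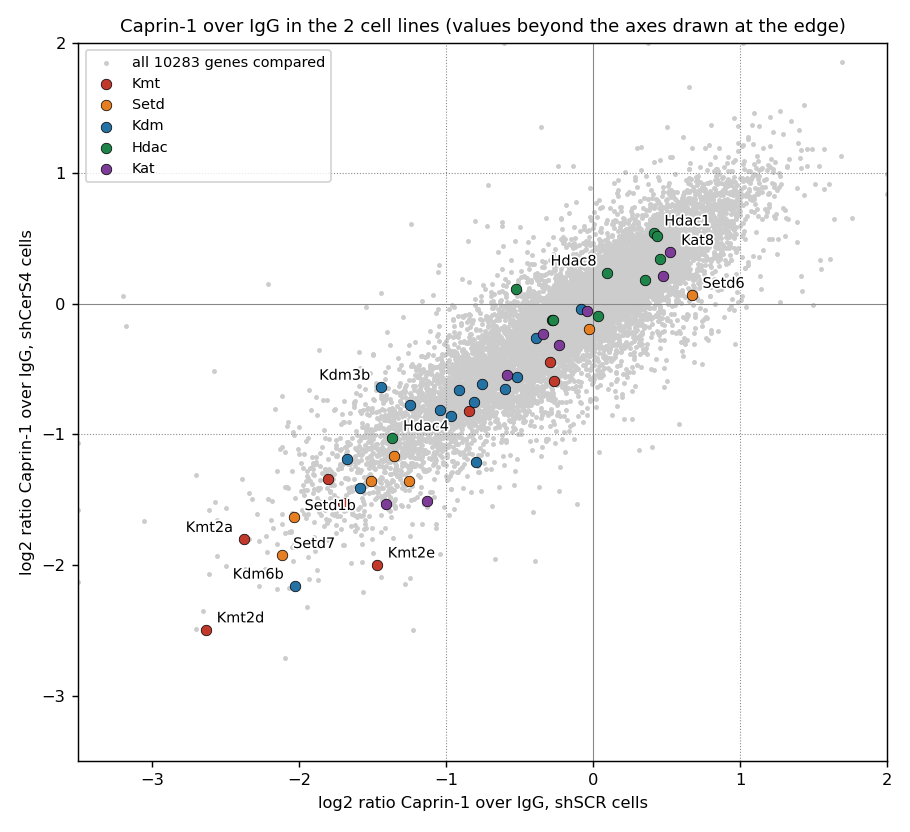
Log2 ratio of Caprin-1 over IgG in shSCR cells (x) and shCerS4 cells (y) for all genes compared (grey) and the 48 enzymes (coloured by class), with dotted lines at 2-fold. Kmt2d, Kmt2a, Setd7, Setd1b and Kdm6b lie at the lower left end of the cloud, and the Hdac genes other than Hdac4 lie around 0.

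All 6 catalytic subunits of the COMPASS-type complexes, which methylate H3K4, were lower past 2-fold with Caprin-1 in both lines. Kmt2d, one of the enhancer H3K4 monomethylases, stood at 16.8 CPM with IgG and 2.70 CPM with Caprin-1 in shSCR cells, and at 17.7 and 3.12 CPM in shCerS4 cells. Both Caprin-1 libraries were thus far below both IgG libraries, at log2 ratios of −2.63 [−3.03, −2.27] and −2.50 [−2.88, −2.14], the 10th and the 3rd lowest of all 10283 genes. Kmt2c, its close relative, was 3.48-fold and 2.53-fold lower. Kmt2a, the MLL gene of leukaemia translocations, stood at 38.1 and 7.33 CPM in shSCR cells and at 32.4 and 9.28 CPM in shCerS4 cells. Its ratio was −2.38 [−2.61, −2.15] in shSCR and −1.80 [−2.03, −1.58] in shCerS4 cells, and again the libraries split by antibody and not by line. Kmt2b, the other MLL-type promoter enzyme, was lower by ratios of −1.70 and −1.52. The SET1 enzymes carry out most H3K4 trimethylation. Setd1b stood at 18.3 and 4.44 CPM in shSCR cells and at 17.5 and 5.64 CPM in shCerS4 cells, ratios of −2.04 [−2.35, −1.74] and −1.63 [−1.93, −1.35], and Setd1a had ratios of −1.36 and −1.17. Kmt2d, Kmt2c and Setd1b had few reads with Caprin-1, which the wide intervals reflect.

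Several other SET-domain genes followed the same direction. Kmt2e, a SET protein without established methyltransferase activity, stood at 114 CPM with IgG and 41.1 with Caprin-1 in shSCR cells, and at 156 and 39.0 CPM in shCerS4 cells. Its ratio was −1.47 [−1.58, −1.37] in shSCR and −2.0 [−2.10, −1.89] in shCerS4 cells, so the fall was the larger one in shCerS4 cells. Setd5, whose enzyme activity is debated, had ratios of −1.51 and −1.36, and Setd2, the H3K36 trimethylase, −1.25 and −1.36. Setd7, an H3K4 monomethylase that also methylates other proteins, was among the lowest, with 132 and 30.6 CPM in shSCR cells and 157 and 41.4 CPM in shCerS4 cells. These are ratios of −2.11 [−2.23, −2.0] and −1.93 [−2.03, −1.82], with well-filled libraries behind them.

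The remaining methyltransferases were under 2-fold. The H4K20 enzymes differed among themselves: Kmt5b, a di- and trimethylase, had ratios of −0.85 and −0.82, Kmt5c, its partner at heterochromatin, −0.29 and −0.45, and Kmt5a, the monomethylase, −0.27 and −0.59. Setd3, a methylase of actin histidine, stood at 237 and 232 CPM in shSCR cells and 280 and 245 CPM in shCerS4 cells. Its 4 libraries lay within a narrow range, and its ratio of −0.03 [−0.08, 0.03] in shSCR cells turned above 0 under trimmed-mean scaling. Setd6, which methylates the NF-kappaB subunit RelA, was the enzyme with the highest ratio in shSCR cells, at 15.9 CPM with IgG and 25.3 with Caprin-1, or 0.67 [0.48, 0.87]. In shCerS4 cells it stood at 41.9 and 43.9 CPM, a ratio of 0.07 whose interval included 0.

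Every one of the 15 Kdm genes compared had a ratio below 0 in both lines under total scaling. Of all genes compared, 57.4% did in shSCR and 57.2% in shCerS4 cells. Among the Kdm genes, Kdm1a alone turned above 0 under other scaling. Kdm6b, the inducible H3K27 demethylase, was the lowest, at 52.5 and 12.8 CPM in shSCR cells and 54.8 and 12.2 CPM in shCerS4 cells. Its ratios were −2.03 [−2.21, −1.86] and −2.16 [−2.35, −1.98], and its level within each antibody was close between the lines. Kdm6a, the X-linked H3K27 demethylase, had 23.8 and 13.7 CPM in shSCR cells and 23.9 and 10.3 CPM in shCerS4 cells, ratios of −0.80 and −1.21. The H3K4 demethylases Kdm5a, Kdm5b and Kdm5c had ratios of −1.67, −1.25 and −1.04 in shSCR cells and of −1.19, −0.78 and −0.81 in shCerS4 cells, so only Kdm5a was past 2-fold in both. Kdm5a went from 160 to 50.2 CPM in shSCR cells and from 159 to 69.8 CPM in shCerS4 cells. Its IgG levels were thus alike, and the Caprin-1 level was the one that differed between the lines.

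Among the demethylases of H3K9 and H3K36, Kdm7a, which acts on H3K9 and H3K27, was past 2-fold in both lines, at −1.58 and −1.41. Kdm3b, an H3K9 demethylase, was past 2-fold in shSCR cells (−1.44) but not in shCerS4 cells (−0.64), and its relative Kdm3a stood at −0.81 and −0.76. Kdm2a and Kdm2b, which remove H3K36 dimethylation, had ratios of −0.97 and −0.52 in shSCR cells. The Kdm4 genes, which act on trimethylated H3K9 and H3K36, lay between −0.92 (Kdm4c) and −0.39 (Kdm4b) in shSCR cells. Of the flavin-dependent enzymes, Kdm1b stood at −0.75 and −0.61. Kdm1a, the LSD1 enzyme of the CoREST complex, stood at 176 and 166 CPM in shSCR cells and 168 and 163 CPM in shCerS4 cells. The 4 libraries of Kdm1a hardly differed, with ratios of −0.08 [−0.14, −0.02] and −0.04 [−0.11, 0.03].

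Deacetylases were the class with the least shortfall. The class I enzymes are Hdac1, Hdac2 and Hdac3, which serve as catalytic subunits of corepressor complexes, and Hdac8, which does not. They had a median ratio of 0.25 in shSCR and 0.38 in shCerS4 cells. Hdac3, the NCoR enzyme, stood at 84.4 CPM with IgG and 114 with Caprin-1 in shSCR cells, and at 89.7 and 128 CPM in shCerS4 cells, ratios of 0.44 [0.35, 0.52] and 0.52 [0.43, 0.60]. Hdac1 stood at 57.8 and 76.9 CPM in shSCR cells and 42.3 and 61.8 CPM in shCerS4 cells, ratios of 0.41 [0.31, 0.52] and 0.54 [0.42, 0.67]. Both genes had more with Caprin-1 in each line, though under 2-fold. Hdac8 stood at 15.5 and 16.6 CPM in shSCR cells and 17.6 and 20.8 CPM in shCerS4 cells, ratios of 0.10 and 0.24. Hdac2, which shares complexes with Hdac1, had 149 and 153 CPM in shSCR cells and 206 and 193 CPM in shCerS4 cells. Its ratios of 0.04 and −0.09 were close to 0, and the latter turned above 0 under trimmed-mean scaling, so Hdac2 was not higher with Caprin-1 in the way Hdac1 and Hdac3 were.

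The class IIa deacetylases, which shuttle between nucleus and cytoplasm, were split. Hdac4 was lower past 2-fold, at 54.1 and 21.0 CPM in shSCR cells and 59.5 and 29.2 CPM in shCerS4 cells, ratios of −1.37 [−1.52, −1.22] and −1.03 [−1.16, −0.89]. Hdac5 and Hdac7 stood at −0.28 and −0.27 in shSCR cells and at −0.12 each in shCerS4 cells, values that turned above 0 under trimmed-mean scaling in shCerS4 cells. Hdac6, the tubulin deacetylase, had ratios of −0.52 [−0.65, −0.40] and 0.11 [−0.04, 0.26]. Hdac10, a polyamine deacetylase, had 4.68 and 6.42 CPM in shSCR cells and 4.26 and 5.42 CPM in shCerS4 cells, ratios of 0.45 [0.09, 0.84] and 0.35 [−0.05, 0.76]. Hdac11, the class IV enzyme, had ratios of 0.35 [0.15, 0.56] and 0.18 [0.07, 0.30].

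Acetyltransferases ran from well below to above 0. The MYST family held both ends. Kat6a, the MOZ enzyme, stood at 43.5 and 16.4 CPM in shSCR cells and 56.3 and 19.4 CPM in shCerS4 cells, ratios of −1.41 [−1.58, −1.24] and −1.54 [−1.69, −1.38], and its relative Kat6b had −1.13 and −1.51. Both were past 2-fold in both lines. Kat8, the H4K16 acetylase of the MSL and NSL complexes, had 26.5 and 38.1 CPM in shSCR cells and 32.3 and 42.5 CPM in shCerS4 cells. It was thus higher with Caprin-1 in both lines, by 0.52 [0.37, 0.68] and 0.40 [0.25, 0.54]. Kat5, the TIP60 enzyme, had 50.6 and 70.2 CPM in shSCR cells and 63.1 and 73.1 CPM in shCerS4 cells, ratios of 0.47 and 0.21. Its 4 transcripts above the limit ranged from −0.49 to 2.35 in shSCR cells. Kat7, the HBO1 enzyme of origin licensing, had ratios of −0.59 and −0.55. The GNAT enzymes Kat2a and Kat2b, which sit in the SAGA and ATAC complexes, had ratios of −0.04 and −0.34 in shSCR cells, and the ATAC subunit Kat14 had −0.23.

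The genes of these enzymes are long, and the Caprin-1 over IgG ratio fell with genomic span. Their median span was 45.7 kb against 23.5 kb over all genes compared (build GRCm38). Spearman correlations of ratio with span were −0.43 in shSCR and −0.43 in shCerS4 cells over the 48 enzymes, and −0.54 and −0.48 over 10277 genes with a span. These are descriptions across genes, which are not replicates and which share the libraries. Among the genes with the longest span (over 38.9 kb, when all were split into 3 equal parts), the 29 enzymes had a median ratio of −1.04 in shSCR cells against −0.63 for all 3426 genes, and 15 of them (51.7%) were lower past 2-fold against 28.7%. In the middle part (14.0 to 38.9 kb), 4 of 13 enzymes (30.8%) were lower past 2-fold against 7.74% of 3425 genes, with medians of −0.28 and −0.13. In the shortest part none of 6 enzymes was, against only 2.60% of 3426 genes. The median of the enzymes there was 0.46 against 0.26 in shSCR cells. The shCerS4 medians were 0.14 against 0.19 there, −0.32 against −0.09 in the middle part and −0.82 against −0.49 in the longest. The 4 of the middle part were Kmt2b (chr7:30568855-30589056), Setd1a (chr7:127777389-127800122), Setd1b (chr5:123142040-123168630) and Kdm6b (chr11:69398508-69420367), which span 20.2, 22.7, 26.6 and 21.9 kb. Hdac8 was the reverse case, with a span of 221 kb and a ratio of 0.10. Lengths of the spliced transcripts were not used here, so their part in these ratios was not tested.

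**Figure D3:**
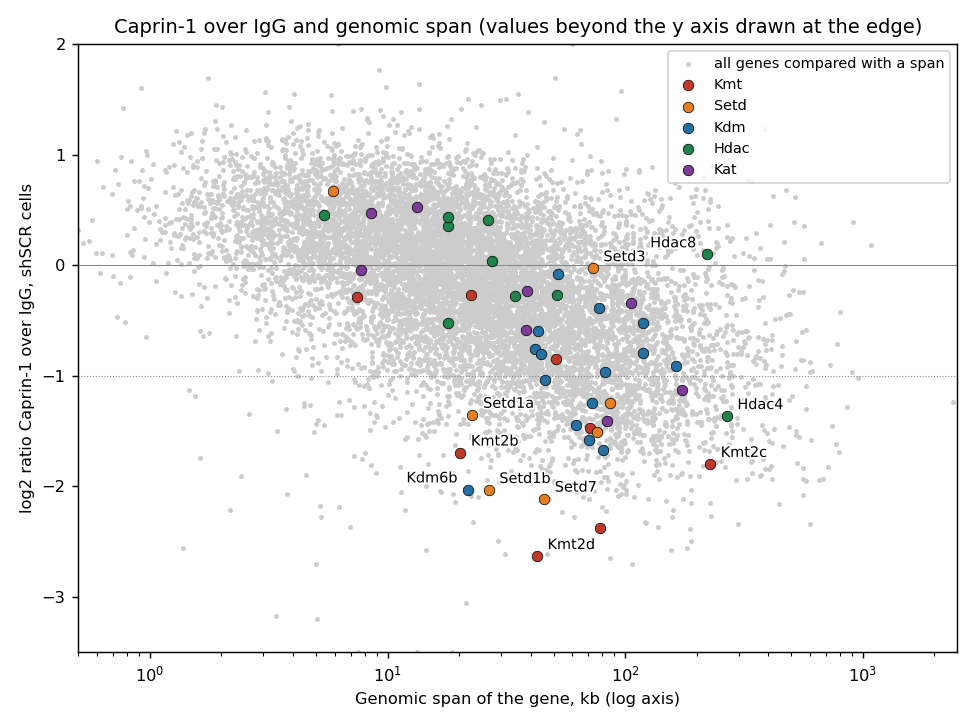
Log2 ratio of Caprin-1 over IgG in shSCR cells (y) against the genomic span of the gene in kb (x, log axis) for all genes compared with a span (grey) and the 48 enzymes (coloured by class). Kmt2b, Setd1a, Setd1b and Kdm6b lie below −1, whereas Hdac8 and Setd3 lie near 0 at longer spans.

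The main comparison of the study set shCerS4 against shSCR cells within the Caprin-1 precipitates. In these, 3 of the 48 enzymes (6.25%) were higher past 2-fold in shCerS4 cells, the same share as the 6.25% of all genes, and none was lower against 4.95% of all genes. The median ratio was 0.25 against 0.15 over all genes, and 0.14 against 0.04 under trimmed-mean scaling. In the IgG precipitates, 4 enzymes were higher against 5.69% of all genes and none was lower against 5.34%, with medians of 0.15 and 0.10. Over all genes 643 were higher and 509 lower with Caprin-1, which became 484 and 590 under trimmed-mean scaling, and with IgG 585 and 549 became 448 and 644. As a group these transcripts therefore shifted by little, and the shares of higher genes were near the background. Each library pools many cells, so fewer cells with a transcript and less of it per cell cannot be told apart.

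The 3 enzymes higher past 2-fold in both precipitates were Hdac11, Kmt2c and Kdm7a. Hdac11, which removes long fatty acyl groups from lysine as well as acetyl groups, stood at 15.9 CPM with IgG and 20.4 with Caprin-1 in shSCR cells and at 55.5 and 63.1 CPM in shCerS4 cells. Both shCerS4 libraries were well above both shSCR libraries, with ratios of 1.63 [1.49, 1.78] in Caprin-1 and 1.80 [1.62, 1.99] in IgG precipitates. Kmt2c stood at 11.2 and 3.22 CPM in shSCR cells and at 27.6 and 10.9 CPM in shCerS4 cells, ratios of 1.75 [1.40, 2.12] and 1.29 [1.07, 1.52]. Its shCerS4 Caprin-1 level was still slightly below its shSCR IgG level. Kdm7a stood at 17.5 and 5.85 CPM in shSCR cells and at 47.3 and 17.8 CPM in shCerS4 cells, ratios of 1.60 [1.34, 1.87] and 1.43 [1.25, 1.61].

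For these 3 genes, picked for being past 2-fold in both precipitates, bases upstream of their start sites are shown. The bases were taken from RefSeq (build GRCm38.p6) and written 5′ to 3′. Over all genes the ratios of the precipitates went together too, with a Pearson correlation of 0.89 against 0.85 over the enzymes. The share of all genes past 2-fold in both was not counted, and shared control of the 3 genes was not tested. Capitals mark matches, on either strand, to any of 7 motifs: the GC box GGGCGG, the CRE TGACGTCA, the E-box CACGTG, the AP-1 motif TGANTCA, the NRF1 motif, the CCAAT box CCAAT and the C/EBP-ATF motif TGATGNAAT. Neighbouring matches can overlap. The RefSeq table gives 250 bases before 1 start site for each of these 3 genes. For Kmt2c and Hdac11 another transcript starts inside that window, so only the 178 and 105 bases outside the gene are printed.
Kmt2c, chr5:25498856-25499033, minus strand: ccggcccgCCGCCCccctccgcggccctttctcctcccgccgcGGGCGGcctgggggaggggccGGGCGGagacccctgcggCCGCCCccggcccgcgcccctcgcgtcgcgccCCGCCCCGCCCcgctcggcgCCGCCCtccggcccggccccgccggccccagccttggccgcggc
Hdac11, chr6:91156565-91156669, plus strand: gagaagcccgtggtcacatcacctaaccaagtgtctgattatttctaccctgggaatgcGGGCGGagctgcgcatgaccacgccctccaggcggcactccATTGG
Kdm7a, chr6:39206774-39207023, minus strand: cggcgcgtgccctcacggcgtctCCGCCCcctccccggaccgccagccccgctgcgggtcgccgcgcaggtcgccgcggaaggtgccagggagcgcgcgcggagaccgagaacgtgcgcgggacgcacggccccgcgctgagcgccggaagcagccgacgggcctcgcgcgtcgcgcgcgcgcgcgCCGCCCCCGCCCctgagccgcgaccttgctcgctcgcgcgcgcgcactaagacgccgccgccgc
In the full windows the GC box was found 12 times before Kmt2c (7 of them in the printed bases), 3 times before Kdm7a and once before Hdac11, the CCAAT box once before Hdac11, and none of the other 5 motifs in any of the 3 windows. Over all 32851 such windows in the RefSeq table, 32.7% held a GC box and 33.8% a CCAAT box, and over the 53 windows of 36 enzymes with an entry 62.3% and 41.5% did. Kmt2c and Kdm7a had 48 and 56 CpG dinucleotides in the window and Hdac11 had 17, where the median was 19 for the enzymes and 6 for all windows. All windows were taken without the limit of 5 CPM that the enzymes had to meet, so the sets are unlike. A match is a description of the letters, not a shown binding site.

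Setd6 was higher past 2-fold in the IgG precipitates alone, at 1.40 [1.21, 1.59], and with Caprin-1 its ratio was 0.79 [0.66, 0.94]. A single listed transcript bore on this: it stood at 0.339 CPM in the shSCR IgG library and at 13.4 CPM in the shCerS4 IgG library, and the most abundant transcript of Setd6 alone gave an IgG ratio of 0.74. Kdm4c followed the 3 highest genes in the Caprin-1 precipitates with 0.90 [0.69, 1.11], from 11.2 to 20.9 CPM, and its IgG ratio was 0.65, from 21.1 to 33.0 CPM. By its most abundant transcript alone the Caprin-1 value was 0.16. The lowest ratios belonged to Kat7, at 200.4 and 133 CPM in shSCR cells and 120.3 and 82.3 CPM in shCerS4 cells. These were −0.70 [−0.78, −0.62] with Caprin-1 and −0.74 [−0.81, −0.66] with IgG, and both shCerS4 libraries were below both shSCR libraries. Hdac5 had −0.55 and −0.71, from 154 to 105.0 CPM with Caprin-1 and from 186 to 114 CPM with IgG. Kdm3a had −0.45 and −0.51, from 31.6 to 23.0 CPM and from 55.3 to 38.9 CPM. As sums over transcripts, all 3 genes were thus lower in shCerS4 cells in both precipitates, as was Kat2a (−0.44 and −0.43), from 109 to 80.1 CPM and from 112 to 83.1 CPM. The most abundant transcript of Kat7 had −0.94 with Caprin-1 and −1.02 with IgG, but another, with a mean of 32.6 CPM, had 0.17 and −0.02. Transcripts with a mean of at least 5 CPM had IgG ratios from −1.05 to 1.00 for Hdac5 and from −1.28 to 1.91 for Kdm3a. Hdac6 differed between the precipitates, with −0.05 [−0.18, 0.09] for Caprin-1 and −0.69 [−0.83, −0.54] for IgG.

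**Figure D4:**
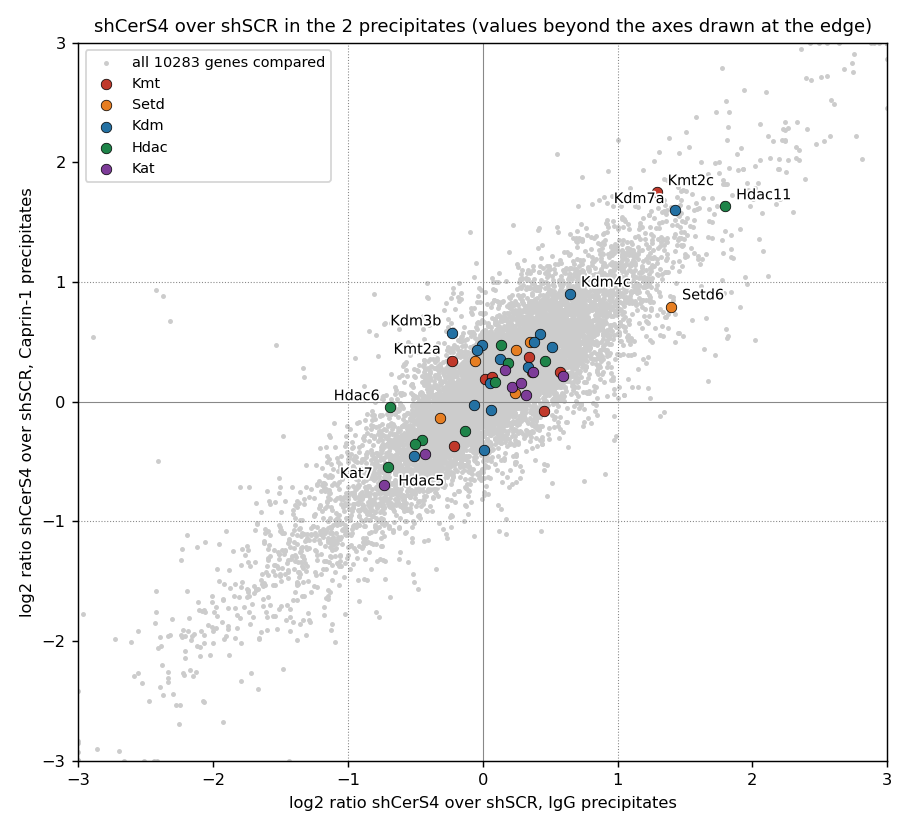
Log2 ratio of shCerS4 over shSCR in IgG (x) and Caprin-1 (y) precipitates for all genes compared (grey) and the 48 enzymes (coloured by class), with dotted lines at 2-fold. Kmt2c, Kdm7a and Hdac11 are past 2-fold on both axes, Setd6 on the IgG axis alone, and the other enzymes lie within 2-fold.

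The lines were then compared in how far Caprin-1 and IgG levels lay apart. No enzyme differed past 2-fold in either direction, where 0.632% of all genes were higher in shCerS4 cells and 0.350% lower. The median difference was 0.09 against 0.04 over all genes. Kdm3b had the highest difference, at 0.81 [0.61, 1.00], from 57.4 CPM with IgG and 21.1 with Caprin-1 in shSCR cells to 49.1 and 31.5 CPM in shCerS4 cells. Its Caprin-1 level was higher and its IgG level lower in shCerS4 cells. Hdac6 followed with 0.64 [0.44, 0.83], from 52.0 and 36.1 CPM to 32.3 and 35.0 CPM, where the IgG level was the one that differed. Kmt2a stood at 0.57 [0.26, 0.89]. Kdm5a and Kdm5b stood at 0.48 and 0.47, so all 3 Kdm5 genes, with Kdm5c at 0.23, had a smaller shortfall in shCerS4 cells. This was not particular to them: all 6 COMPASS-type methyltransferase genes had a difference above 0, with a median of 0.29. The counting interval lay above 0 for only 2 of these 6, against 29.4% of all genes. The difference also rose with genomic span, with Spearman correlations of 0.29 over all genes and 0.25 over the enzymes. It was below 0 for 39.6% of the enzymes and 44.0% of all genes. At the low end of the enzymes was Setd6 at −0.60 [−0.84, −0.37], whose ratio was above 0 in shSCR cells and near 0 in shCerS4 cells. Kmt2e at −0.53 [−0.68, −0.38] and Kdm6a at −0.41 [−0.71, −0.12] had a larger shortfall in shCerS4 cells. Setd6 stood at 0.07 by its most abundant transcript alone, so its place there rests on the sum over transcripts.

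**Figure D5:**
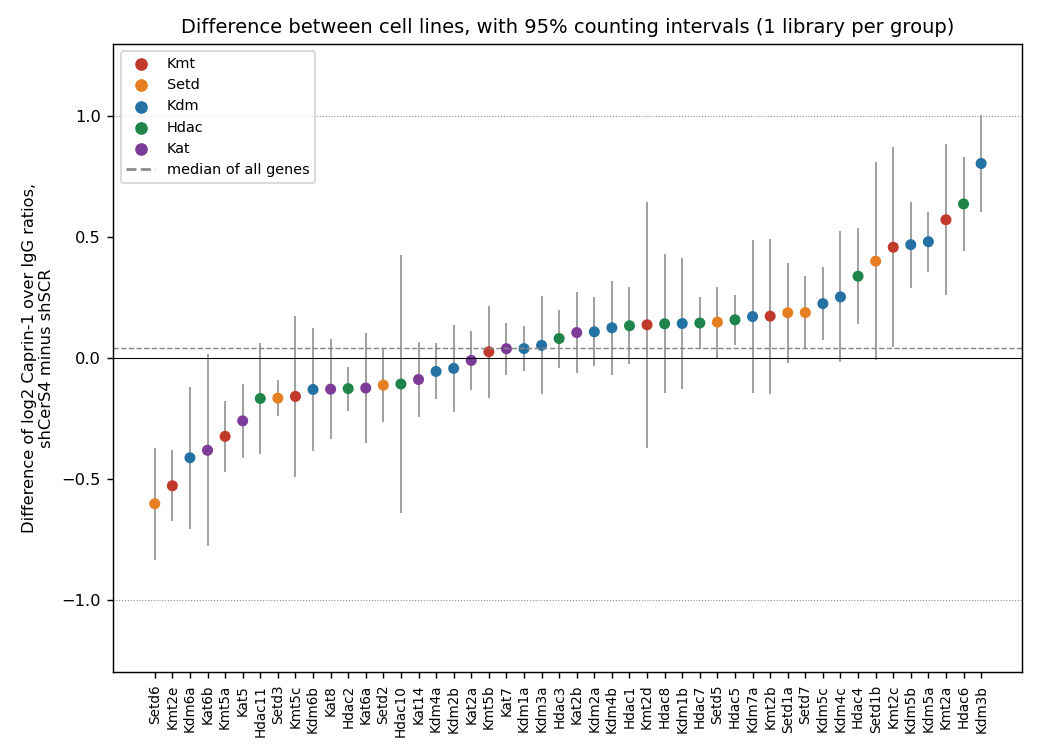
Difference of the log2 Caprin-1 over IgG ratios, shCerS4 minus shSCR, for the 48 enzymes in order, with bars for the 95% counting interval of 1 library per group, dotted lines at 2-fold and a dashed line at the median of all genes. Every point lies within 2-fold, with Setd6 and Kmt2e lowest and Kdm3b highest.

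Genes that work with these enzymes, from 9 lists of other writers, erasers, complex partners and readers, were set beside them. Of 199 such genes compared, 54 (27.1%) were lower past 2-fold with Caprin-1 in shSCR cells and 38 (19.1%) in shCerS4 cells, against 13.0% and 8.02% of all genes. Their medians were −0.48 and −0.43, against −0.13 and −0.11 over all genes. The counts by list that follow are for shSCR cells and are to be read against the 13.0%. In shSCR cells the lowest list median was that of the other acetyltransferases (−1.08, 7 of 11 lower), which included the acetylase genes Crebbp (−1.90) and Ep300 (−1.14). Next came the list of other demethylases (−0.84, 3 of 9) and the readers of histone marks (−0.79, 14 of 36). The demethylase list also held related Jumonji genes that are not histone demethylases, such as Jarid2 and Hif1an. COMPASS partners had a median of −0.50 with 4 of 14 lower, among them Ncoa6 (−1.44), whereas the small core subunit gene Dpy30 stood at 0.56. Polycomb genes had a median of −0.34 with 5 of 29 (17.2%) lower, near that share, led by Phc3 (−2.11). Of the HDAC complex partners 8 of 29 were lower (median −0.51), and of the KAT complex partners 8 of 40 (median −0.42), among them Brpf3 (−1.57). Other methyltransferases had −0.22 with 5 of 24 lower, among them the H3K36 enzyme genes Nsd1 (−1.51) and Ash1l (−1.57). Sirtuins, the NAD-dependent deacylases, were the exception, with a median of 0.34, none lower and the mitochondrial Sirt5 higher at 1.49.

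Between shCerS4 and shSCR cells in the Caprin-1 precipitates, 5 of the 199 genes (2.51%) were higher past 2-fold and 5 lower, against 6.25% and 4.95% of all genes, so neither share was above the background. Their median was 0.03 against 0.15 over all genes. The lower ones were the histone acetylase gene Hat1 (−1.05), the demethylase gene Hr (−1.36), the Polycomb gene Phf19 (−1.57), Ing5 (−1.02) and Atad2 (−1.81), which encodes a bromodomain protein. The higher ones were Clock (1.34), the Sin3 subunit gene Sap30 (1.06), Jade3 (1.15), Brwd3 (1.00) and Baz2a (1.06).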

How the data were processed

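The authors deposited CPM values under a name that calls them raw counts. Many symbols fill several rows with no other identifier, and these rows were taken as transcripts, an inference from the values. Reads were aligned with STAR in Partek to mm10, per the submitters' processing notes. The counter, the annotation and the strand of the reads were not given in the sources used here. Per the labels' protocols, a SMARTER kit was used on polyadenylated RNA. Each deposited CPM value carried an added 0.0001, which was subtracted, and transcripts were summed per symbol. The CPM worth of 1 read was found from the spacing of low values, and gave depths of 19800000 (IgG) and 27000000 (Caprin-1) reads in shSCR cells and of 19700000 and 24700000 in shCerS4 cells. Below 40 CPM, 79.8% to 81.2% of summed values, but 28.8% to 31.4% of transcript values, came within 0.05 of whole reads. The worth of 3 reads was 0.111 to 0.152 CPM.

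Log2 ratios used library totals and 0.5 added reads, with exact binomial intervals for ratios and normal intervals for the difference of ratios. The intervals were tried on simulated whole reads drawn with counting error alone, the model they assume. That trial did not cover values that are not whole reads. These intervals cover neither amplification nor variation between cultures. Genes needed a mean of 5 CPM. All 51 symbols matched RefSeq genes of GRCm38.p6, which gave positions and promoters. Alternatives were trimmed-mean (30% of log ratios and 5% of abundances) and median-of-ratios scaling, minimum means of 1 and 20 CPM or no minimum, 5 added reads, the most abundant transcript alone, and no interval. Values in all libraries were given for the highest CPM of each class and for the 5, 4 or 3 highest and lowest enzymes of each comparison, and other enzymes were added after their values were seen. Partner genes followed a like rule, with others named after their values were seen. A planned description by protein length was not run. The members, lists and roles were chosen with earlier results of these data known. Python 3.11.15, numpy 2.4.6, pandas 2.3.3, scipy 1.17.1 and matplotlib 3.10.9 were used.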

Additional observations from a re-analysis of the deposited data

Results flagged for a closer look

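For 2 of the 48 enzymes the shCerS4 over shSCR ratio had opposite signs in the 2 precipitates, with both counting intervals excluding 0. The same was not counted over all genes, so there is no background share to read this against. Over all genes the counting interval lay above 0 for 51.0% and below 0 for 30.2% with Caprin-1, and for 46.9% and 32.2% with IgG. For Kdm3b the ratio was 0.58 with Caprin-1 and −0.23 with IgG. For Kmt2a it was 0.34 and −0.23. With 1 library per group the difference was not tested beyond counting error, and both enzymes kept these signs under trimmed-mean and median-of-ratios scaling.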

How the results depend on the processing

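No paired analysis was possible because each group had 1 library, so no replicate numbers could be matched. An additive fit of antibody and line over the 4 libraries, which leaves 1 residual degree of freedom, was not run. Of 120 values over all enzymes (medians and counts past 2-fold), 103 stayed within the limit set for them and 17 did not. The limit was 1.5 times for a count and, for a median, the enzymes' median half-width of the counting interval. No median changed sign, whereas a count has no sign, so a change of direction could not show in the counts. Counts of 0 under both the main and the other setting were among the values that stayed. In shSCR cells the Caprin-1 over IgG median was −0.61 under trimmed-mean scaling, −0.60 under median-of-ratios scaling and −0.60 with a filter of 20 CPM. In shCerS4 cells it was −0.49 and −0.50 under the first pair of settings. With a filter of 20 CPM 11 of 39 enzymes (28.2%) were lower past 2-fold in these cells, against 7.39% of 7727 genes. In shSCR cells 1 enzyme was higher past 2-fold without a filter (Kdm4d) and 1 with the most abundant transcript alone (Kat5). With filters of 1 CPM and none, 1 enzyme was lower past 2-fold in the IgG precipitates of shCerS4 cells (Kdm8), and with the most abundant transcript 2 were (Kat7 and Kdm3a). Of all genes, 6.66%, 9.11% and 6.69% were lower with these settings in this order. For the difference of ratios, 1 enzyme was higher and 1 lower past 2-fold with a filter of 1 CPM, with none and with the most abundant transcript alone. The cause was not tested where the setting itself does not show it. With the first 2 of these settings they were Kdm8 and Setd4. Over all genes, counts of higher and lower genes for the difference were 230 and 177 with a filter of 1 CPM, 8 and 3 with 20 CPM, 457 and 311 with none and 278 and 174 with the most abundant transcript, against 65 and 36. For Caprin-1 over IgG in shSCR cells, 448 were higher under median-of-ratios scaling, 262 with 1 CPM, 113 with 20 CPM, 418 with no filter and 265 with the most abundant transcript, against 174, and 2050 were lower with no filter, against 1337. In shCerS4 cells the higher counts in this order were 229, 187, 53, 356 and 181, against 96, and the lower ones were 549 under median-of-ratios scaling and 1359 with no filter, against 825. For shCerS4 over shSCR, no filter gave 1270 and 927 with Caprin-1 and 1238 and 1181 with IgG, 20 CPM gave 353 and 333, and 297 and 338, and 1 CPM gave 884 higher with IgG. The main counts were 643 and 509, and 585 and 549.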

Other observations

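A total of 3 enzymes had a mean below 5 CPM and were not compared. Kdm8, a Jumonji hydroxylase, stood at 5.8 CPM with IgG and 3.55 with Caprin-1 in shSCR cells and at 1.63 and 2.64 CPM in shCerS4 cells, so the order of the antibodies differed between the lines. Setd4 stood at 1.71 and 2.26 CPM in shSCR cells and at 3.05 and 1.46 CPM in shCerS4 cells. Kdm4d, the H3K9 demethylase without PHD and Tudor domains, stood at 0.202 CPM in the shSCR IgG library and between 0.703 and 1.05 CPM in the other 3. At these levels a few reads decide a ratio.

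Of the 51 enzymes, 25 had more than 1 listed transcript, and 15 had at least 2 transcripts with a mean of 5 CPM. Transcripts of 1 gene could differ more than most genes did. The Caprin-1 over IgG ratios in shSCR cells ranged from −1.63 to 1.51 over 5 transcripts of Hdac5, from −0.49 to 2.35 over 4 transcripts of Kat5 and from −1.24 to 1.20 over 3 transcripts of Kmt5a. For Kdm1a, 2 transcripts differed by 0.01, and for Setd5, 2 transcripts differed by 0.06. The transcripts carried no identifier and their values were rarely whole reads, so a real isoform difference and the division of reads among isoforms cannot be told apart.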
